A study of Mus musculus with 6 samples.

Results

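Genes of the sperm tail were followed in 6 mouse RNA sequencing libraries. They were all listed symbols beginning with Dnah, Tekt, Odf, Rsph or Spag, together with Akap3, Akap4, Smcp and Cabyr, which gave 45 genes of the 23889 in each table. The tested cells were androgenetic haploid embryonic stem cells (AG-haESCs), grown from blastocysts made by injecting a sperm head into an oocyte whose spindle had been removed. Their strain is labelled F1 hybrid C57BL/6 X DBA/2. The 3 AG-haESC lines, A129-2, AOS-14 and AOS-16, had 1 library each; they were cultured over feeders in a serum replacement medium containing 2i, a pair of kinase inhibitors against MEK and GSK3, and haploid cells in G0/G1 were collected by flow sorting. Round sperm, labelled as sperm of the same hybrid strain, had 1 library, whose labels repeat the text on culture and sorting of the AG-haESCs. ESC XX, from an Oct-GFP line on a C57 background, had 2 libraries and grew in serum, LIF and 2i, with feeder removal before collection and no sort named. Nothing in the labels says that the 2 ESC XX libraries came from separate cultures.

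The motor of the sperm tail is the axoneme, a cylinder of doublet microtubules around a central pair. Dynein arms on the doublets slide them past each other, radial spokes and the central apparatus regulate the arms, and tektins are filamentous proteins within the doublet walls. Mammalian sperm wrap this core in outer dense fibres, in a mitochondrial sheath along the midpiece and in a fibrous sheath along the principal piece. Most of these parts are assembled during spermiogenesis, when the round haploid spermatid elongates. The radial spokes, tektins and most dynein arms also occur in motile cilia, whereas the dense fibres and the fibrous sheath belong to sperm.

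The libraries bore the marker genes of their labels. Of 10 pluripotency markers all 10 reached 1 TPM (FPKM rescaled to the same total in each library) in every AG-haESC and ESC XX library, with summed levels of 7769 to 8520 TPM in AG-haESCs, 206 TPM in round sperm and 8102 to 8202 TPM in ESC XX. In round sperm 7 of these 10 reached 1 TPM, and Klf4 held 176 of the 206 TPM. That was above its 91.2, 164 and 158 TPM in A129-2, AOS-14 and AOS-16. The 10 spermatid markers summed to 6.07 to 9.26 TPM in AG-haESCs, 30491 TPM in round sperm and 4.00 to 5.76 TPM in ESC XX. Other testis cells were read from their own lists. The meiotic spermatocyte markers summed to 83.5 to 166 TPM in AG-haESCs, against 918 TPM in round sperm, where 9 of 10 reached 1 TPM. Syce1 held 644 of the 918 TPM. Hormad1 and Dmc1 went the other way, higher in every AG-haESC line than in round sperm, as did Mlh3 in A129-2 and AOS-16. The Sertoli and Leydig markers summed to 10.0 to 12.1 TPM in AG-haESCs, against 3.67 TPM in round sperm, where 1 of 9 reached 1 TPM. The part of spermatocytes in the levels of round sperm was not tested. Depth, estimated from the steps of low values and counted in fragments × 1e6, was 8.40 to 17.8 in AG-haESCs, 9.80 in round sperm and 15.0 and 17.2 in ESC XX. At those depths 1 fragment on a transcript of 1 kb is worth 0.0561 to 0.119 FPKM (fragments scaled by transcript length and library size) in AG-haESCs and 0.102 FPKM in round sperm. Lower values on transcripts of about that length rest on very few fragments.

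In AG-haESCs most sperm tail genes were at or near 0, and in round sperm many were among the highest transcripts of the library. Across the 3 AG-haESC libraries, 31 of the 45 genes stayed under 1 FPKM throughout. The sum over all 45 was 264 to 348 TPM in AG-haESCs, 15075 TPM in round sperm and 380 and 381 TPM in ESC XX. A single gene, Odf2, supplied 97.2 to 160 TPM of the sum in AG-haESCs and 140 and 141 TPM in ESC XX. In round sperm 23 of the 45 (51.1%) reached 100 FPKM, against 2382 of all 23889 genes (9.97%). These are bulk samples, in which fewer cells of a type and less RNA per cell cannot be told apart. The plot of levels by library shows the 45 genes by family.

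**Figure D1:**
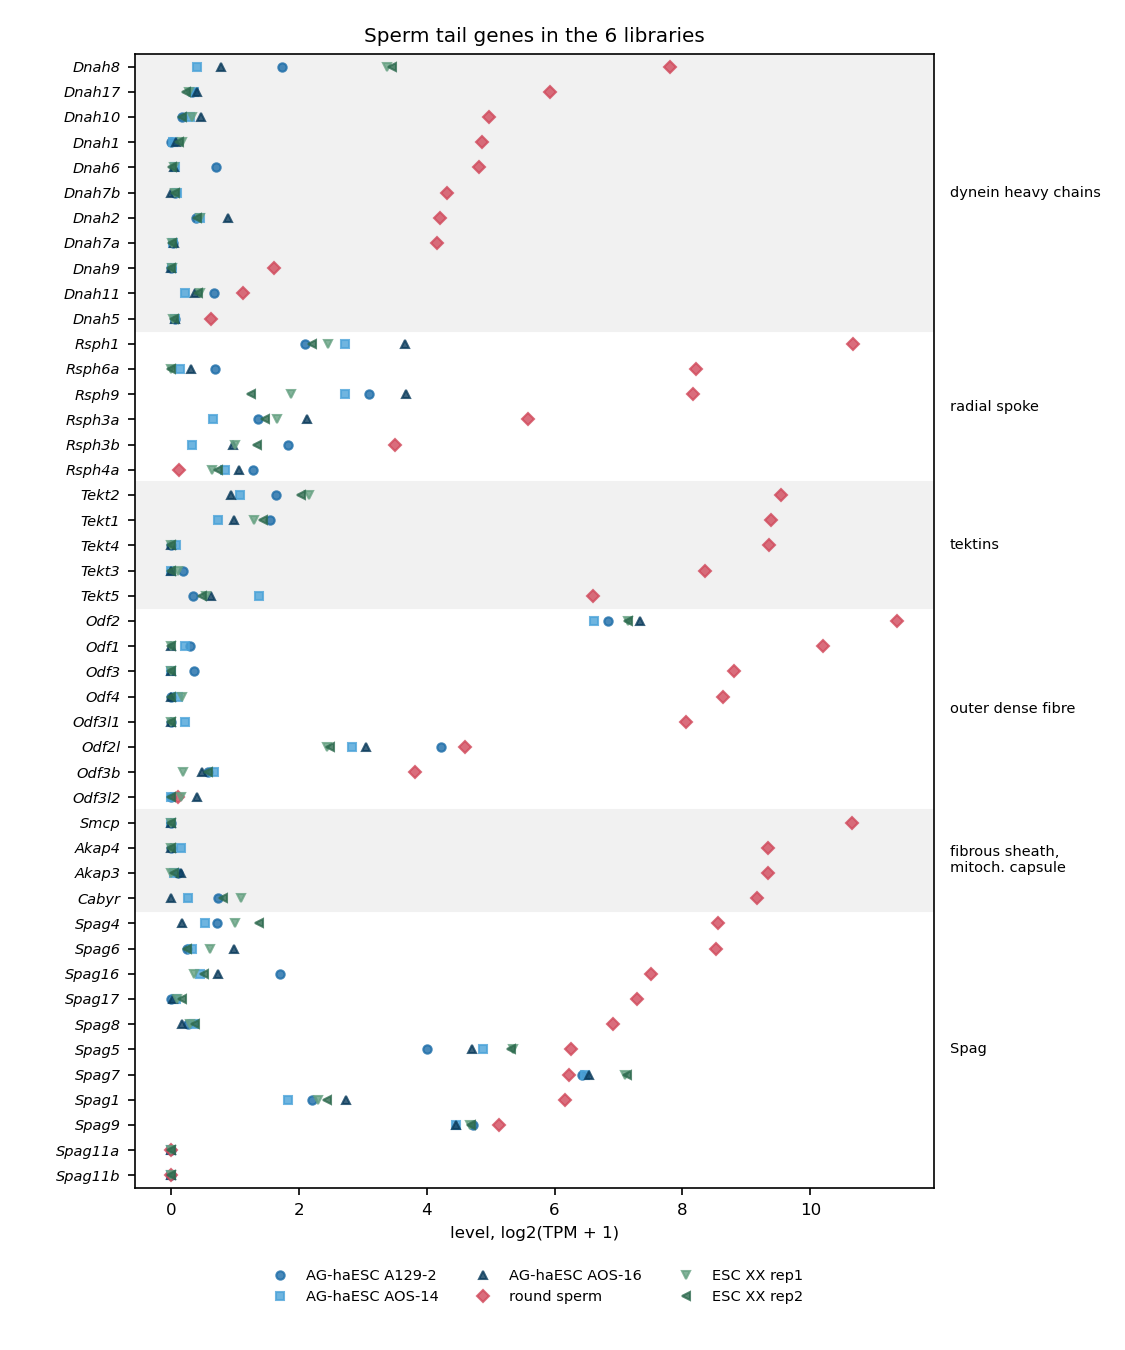
Level of each sperm tail gene in the 6 libraries as log2(TPM + 1), with genes grouped by family and each symbol standing for 1 library. The round sperm library lies right of the AG-haESC and ESC XX libraries for nearly all genes. Odf2, Odf2l, Spag5, Spag7 and Spag9 are among the genes with a clear level in all 3 cell types, and Rsph4a and Spag7 are lower in round sperm than in all AG-haESC libraries on this scale.

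Upstream sequence is shown for 6 of these genes, which were the highest in round sperm of their family among those with 1 start in the RefSeq promoter table (GRCm38.p6, another build than the mm9 of the deposited values), apart from Tekt2, for which the first of 3 starts was taken. Of the 45 genes 36 were matched by symbol, leaving out Spag6, whose symbol has moved between loci. Each line gives the 250 bases before the start, and capitals mark the letters GTTGCC, the core of sites bound by RFX factors, or TGACGTCA, the cAMP response element bound by CREM and its relatives, searched on each strand. These factors act in spermatids, and the letters alone are no evidence of binding.
Dnah8 (chr17:30626686-30626935, plus strand): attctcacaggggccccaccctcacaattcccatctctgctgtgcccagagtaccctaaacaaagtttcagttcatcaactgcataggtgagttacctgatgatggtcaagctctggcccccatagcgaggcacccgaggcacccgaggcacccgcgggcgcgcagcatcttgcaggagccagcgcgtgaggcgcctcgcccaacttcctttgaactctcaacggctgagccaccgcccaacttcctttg
Rsph6a (chr7:19054437-19054686, plus strand): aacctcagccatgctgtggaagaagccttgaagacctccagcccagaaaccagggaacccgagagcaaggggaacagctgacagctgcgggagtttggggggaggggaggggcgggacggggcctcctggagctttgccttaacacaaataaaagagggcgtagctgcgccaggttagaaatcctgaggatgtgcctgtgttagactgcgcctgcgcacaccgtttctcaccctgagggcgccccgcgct
Tekt2 (chr4:126325689-126325938, minus strand): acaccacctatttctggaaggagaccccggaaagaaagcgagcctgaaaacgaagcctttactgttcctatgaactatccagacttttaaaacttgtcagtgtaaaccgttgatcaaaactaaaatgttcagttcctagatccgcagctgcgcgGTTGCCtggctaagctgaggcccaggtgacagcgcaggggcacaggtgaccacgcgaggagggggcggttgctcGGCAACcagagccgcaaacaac
Odf3 (chr7:140847666-140847915, plus strand): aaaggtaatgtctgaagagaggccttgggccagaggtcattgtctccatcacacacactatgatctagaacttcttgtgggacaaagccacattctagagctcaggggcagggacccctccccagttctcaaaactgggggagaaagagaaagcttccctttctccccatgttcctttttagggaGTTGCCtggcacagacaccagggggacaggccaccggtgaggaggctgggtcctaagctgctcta
Smcp (chr3:92589074-92589323, minus strand): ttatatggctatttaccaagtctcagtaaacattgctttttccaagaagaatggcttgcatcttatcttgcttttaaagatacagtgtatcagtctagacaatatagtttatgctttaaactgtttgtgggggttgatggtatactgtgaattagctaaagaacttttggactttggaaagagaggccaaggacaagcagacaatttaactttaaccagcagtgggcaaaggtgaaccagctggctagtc
Spag4 (chr2:156064963-156065212, plus strand): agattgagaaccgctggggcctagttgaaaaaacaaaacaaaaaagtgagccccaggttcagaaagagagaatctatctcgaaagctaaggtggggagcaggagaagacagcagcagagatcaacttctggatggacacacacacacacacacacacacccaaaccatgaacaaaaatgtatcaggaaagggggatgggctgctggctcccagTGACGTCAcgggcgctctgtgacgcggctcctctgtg

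The RFX core was present before the start of 8 of the 36 genes (22.2%), against 3195 of 27025 genes in the table (11.8%). Tekt2 held it on each strand, and the others were Tekt1, Odf3, Odf3l1, Spag16, Dnah10 and the near-identical pair Dnah7a and Dnah7b. The cAMP response element stood before Spag4 and Dnah6, 2 of the 36 genes (5.56%), against 478 of 27025 (1.77%). Neither set of letters occurred in the window of Smcp, Rsph6a or Dnah8, genes with 2005, 366 and 275 FPKM in round sperm.

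Sperm supplied the genome of AG-haESCs, and the lines were set against round sperm by limma on log2(FPKM + 1). The bounds for a call were a difference of 1 on the log2 scale and an adjusted p (Benjamini-Hochberg) of 0.05. Of the 45 genes 40 reached 1 FPKM in a library and were tested; 38 were lower in AG-haESCs, none was higher, and Odf2l and Spag7 were not called. Over all 15938 genes tested, 39.1% were called lower and 22.8% higher. Of the 40 genes, 26 reached 1 FPKM only in round sperm and had to differ to enter the test; all 26 were called lower, as were 94.0% of all genes that entered in that way, so this count says little about sperm tail genes. Of the other 14, which reached 1 FPKM in an AG-haESC library, 12 were lower, against 24.8% of all 12637 such genes. With every library rescaled to the same total, 34 of 41 genes tested were lower, against 27.4% of all genes, and of the 16 that then reached 1 TPM in an AG-haESC library 10 were lower, against 14.1%. Rescaling also moved the median of all genes to 0.49 from -0.49 and the share of calls that were higher to 52.2% from 36.8%, so differences near 1 depend on the scale. On the deposited scale the median difference over those 14 genes was -5.23, against 0.41 over all 12637 such genes.

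**Figure D2:**
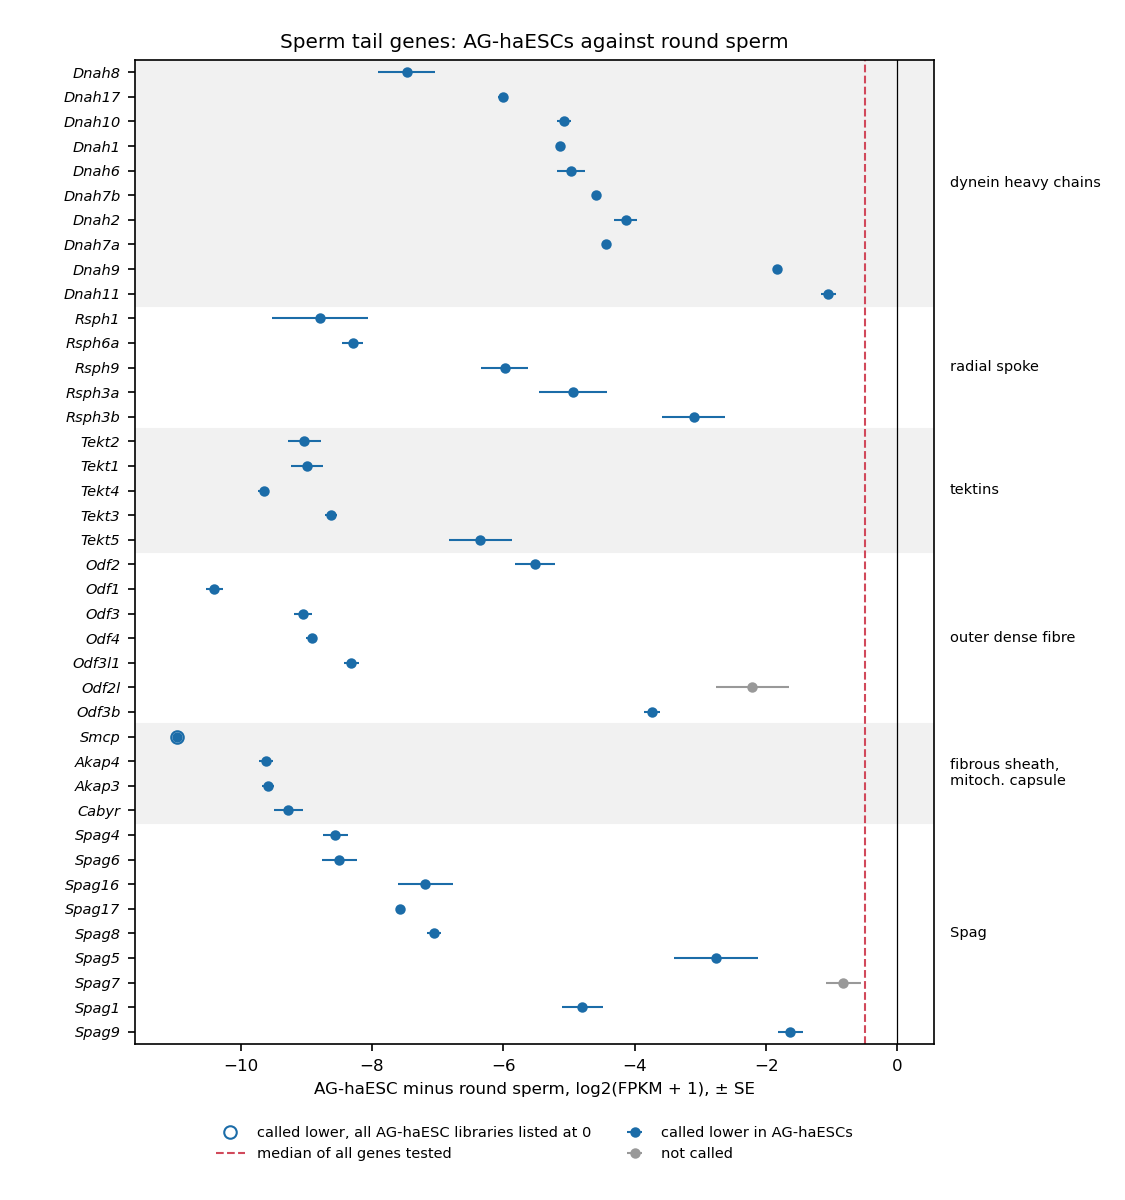
Difference between AG-haESCs and round sperm on the log2(FPKM + 1) scale for the 40 sperm tail genes tested, with limma's standard error. Blue points were called lower and grey points, Odf2l and Spag7, were not called; the ringed point, Smcp, was listed at 0 in all AG-haESC libraries. The dashed line is the median of all genes tested, -0.49.

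Among the 11 dynein heavy chains, the motors of the arms, the order of levels in round sperm followed the known division between sperm and cilia. Dnah8, an outer arm heavy chain of sperm, was at 1.19, 0.232 and 0.390 FPKM in A129-2, AOS-14 and AOS-16, against 275 FPKM in round sperm (log2 difference -7.47 ± 0.44 SE, limma, adjusted p = 0.00277). Its relative Dnah5, the corresponding chain of motile cilia, had at most 0.0295 FPKM in an AG-haESC line and 0.660 FPKM in round sperm, which left it under the filter. Dnah17, the other outer arm chain of sperm, was at 0.126, 0.196 and 0.172 FPKM in the 3 lines, against 73.8 FPKM in round sperm (-6.01 ± 0.07, adjusted p = 0.000100). Dnah9 and Dnah11, its relatives in airway cilia, stood at 2.55 and 1.46 FPKM in round sperm. Exons of Dnah17 overlap Pgs1 on the opposite strand. Pgs1 was at 24.4, 31.6 and 28.9 FPKM in the lines and 56.9 FPKM in round sperm, and its share of the Dnah17 fragments was not tested. Within the round sperm library Dnah8 was thus 417 times Dnah5, and Dnah17 was 28.9 times Dnah9 and 50.5 times Dnah11, with no replicate to give these ratios an error.

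The inner arm heavy chains were close to 0 in AG-haESCs and lay between these extremes in round sperm. Dnah10 was at 0.0631, 0.161 and 0.209 FPKM in the AG-haESC lines, against 37.5 FPKM in round sperm (-5.07 ± 0.10, adjusted p = 0.000328). Dnah1, Dnah6, Dnah7b, Dnah2 and Dnah7a reached at most 0.464 FPKM in an AG-haESC library, the value of Dnah2 in AOS-16, against 20.9 to 34.7 FPKM in round sperm. Dnah7a and Dnah7b are near-identical copies, and their 20.9 and 23.5 FPKM in round sperm may share fragments. All 10 heavy chains tested were called lower, but 9 of them entered only through round sperm, where 94.0% of all genes were called lower, and Dnah8 was the exception. Dnah11 (-1.05 ± 0.12, adjusted p = 0.00939) stood just past the limit of 1 and lost its call after rescaling (-0.71, adjusted p = 0.0859) and without AOS-16 (adjusted p = 0.0544). Dnah11 also overlaps exons of Cdca7l on the opposite strand, and the use of strand in counting is not given in the sources used here.

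Among radial spoke genes the pair Rsph6a and Rsph4a showed the same division, in 1 round sperm library. Rsph6a, the spoke-head protein of sperm, was at 0.308, 0.0731 and 0.132 FPKM in A129-2, AOS-14 and AOS-16, against 366 FPKM in round sperm (-8.30 ± 0.16, adjusted p = 0.000310). Rsph6a entered only through round sperm, where 94.0% of all genes were called lower. Rsph4a, its relative in motile cilia, was at 0.723, 0.556 and 0.593 FPKM in the 3 lines, against 0.106 FPKM in round sperm, and was not tested because no library reached 1 FPKM. All 3 lines thus lay above round sperm for Rsph4a, at levels under 1 FPKM. Rsph1, a spoke-head protein used in sperm and cilia, was the second highest sperm tail gene of round sperm. It had 1.65, 3.95 and 6.34 FPKM in the lines, against 2026 FPKM in round sperm (-8.79 ± 0.73, adjusted p = 0.00540). Rsph9, also of the spoke head, was at 3.83, 3.97 and 6.45 FPKM in the lines and 355 FPKM in round sperm (-5.98 ± 0.35, adjusted p = 0.00282). Rsph3a and Rsph3b, near-identical copies of a spoke stalk gene, were at most 1.83 and 1.29 FPKM in a line, against 58.1 and 12.7 FPKM in round sperm. Both were called lower, Rsph3b (-3.10 ± 0.48, adjusted p = 0.0184) not without AOS-14 (adjusted p = 0.0570), not without AOS-16 (adjusted p = 0.0826) and not after rescaling (adjusted p = 0.0745).

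The 5 tektins were all called lower in AG-haESCs and stood at 118 to 925 FPKM in round sperm. Tekt1, Tekt3 and Tekt4 entered only through round sperm, where 94.0% of all genes were called lower, and Tekt2 and Tekt5 were among the genes that reached 1 FPKM in a line, for which that share was 24.8%. Tekt2 was at 1.07, 0.782 and 0.496 FPKM in A129-2, AOS-14 and AOS-16, against 925 FPKM in round sperm (-9.03 ± 0.25, adjusted p = 0.000620). Tekt1 was at 0.970, 0.461 and 0.531 FPKM in the lines, against 829 FPKM in round sperm (-8.98 ± 0.24, adjusted p = 0.000609). Tekt4 was at 0.0380 FPKM in AOS-14 and listed at 0 in the other lines, against 813 FPKM in round sperm (-9.65 ± 0.09, adjusted p = 5.95e-05). Tekt1 and Tekt2 thus kept a measurable trace in every line, whereas Tekt3 and Tekt4 were each listed above 0 in only 1 line. Tekt5, the lowest in round sperm at 118 FPKM, had its highest line value in AOS-14, at 1.13 FPKM, against 0.136 FPKM in A129-2 and 0.292 FPKM in AOS-16.

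The outer dense fibre family split into sperm genes and genes with a role elsewhere. Odf2, which forms the dense fibres and is also a protein of the centriole's appendages, was the highest sperm tail gene in every library. It stood at 57.6, 68.7 and 87.5 FPKM in A129-2, AOS-14 and AOS-16, against 3266 FPKM in round sperm, the 18th highest level of that library (-5.52 ± 0.30, adjusted p = 0.00246). Odf1, the main protein of the dense fibres, was at 0.117 and 0.112 FPKM in A129-2 and AOS-14 and listed at 0 in AOS-16, against 1452 FPKM in round sperm (-10.40 ± 0.12, adjusted p = 0.000101). Odf3 was at 0.145 FPKM in A129-2 and listed at 0 in AOS-14 and AOS-16, against 552 FPKM in round sperm (-9.05 ± 0.14, adjusted p = 0.000167). Odf4 and Odf3l1 were above 0 in AOS-14 alone among the lines, at 0.0557 and 0.115 FPKM, against 492 and 329 FPKM in round sperm, and Odf3b was at most 0.423 FPKM in a line, against 16.2 FPKM in round sperm. Odf3l2 did not reach 1 FPKM anywhere. Odf1, Odf3, Odf4, Odf3l1 and Odf3b entered only through round sperm, where 94.0% of all genes were called lower. For genes that reached 1 FPKM in a line, as Odf2 did, that share was 24.8%.

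Odf2l, related in sequence to Odf2, was not called. Its values were 9.01, 4.29 and 3.98 FPKM in A129-2, AOS-14 and AOS-16, against 28.6 FPKM in round sperm (-2.21 ± 0.56, adjusted p = 0.0503). All 3 lines lay below round sperm, with A129-2 more than 2-fold above the other lines. Without A129-2 the gene was called lower (-2.53, adjusted p = 0.0114), as it was with a filter of 5 FPKM (adjusted p = 0.0431). It stayed uncalled without AOS-14 (adjusted p = 0.157), without AOS-16 (adjusted p = 0.134), after rescaling (-1.23, adjusted p = 0.251) and after quantile normalisation (-1.36, adjusted p = 0.161).

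The fibrous sheath and capsule genes were at or near 0 in AG-haESCs. All 4 entered only through round sperm, where 94.0% of all genes were called lower, so their calls say little. Akap4 and Akap3 anchor protein kinase A in the fibrous sheath. Akap4, an X-linked gene, was at 0.0762 FPKM in AOS-14 and listed at 0 in the other lines, against 803 FPKM in round sperm (-9.62 ± 0.10, adjusted p = 7.99e-05), and Akap3 was at 0.0367, 0.0171 and 0.0629 FPKM in the 3 lines, against 797 FPKM in round sperm (-9.59 ± 0.09, adjusted p = 6.02e-05). Cabyr, a calcium-binding protein of the sheath, was at 0.336 and 0.138 FPKM in A129-2 and AOS-14 and listed at 0 in AOS-16, against 712 FPKM in round sperm (-9.28 ± 0.22, adjusted p = 0.000462). Smcp, the cysteine-rich protein of the mitochondrial capsule, was listed at 0 in all 3 lines and in both ESC XX libraries, against 2005 FPKM in round sperm. It was called lower (adjusted p = 5.52e-05), and no fold is given against a group listed at 0. With all 3 lines at 0 the gene had no spread of its own, and its p rests on limma's variance trend.

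The Spag genes share a symbol, and their products differ in function. Spag6, Spag16 and Spag17 belong to the central apparatus. Spag16 was at 1.15, 0.253 and 0.356 FPKM in A129-2, AOS-14 and AOS-16, against 224 FPKM in round sperm (-7.19 ± 0.42, adjusted p = 0.00277), and Spag17 was at most 0.0395 FPKM in a line, against 192 FPKM in round sperm. Spag6 was at 0.0953, 0.178 and 0.531 FPKM in the lines, against 453 FPKM in round sperm (-8.50 ± 0.26, adjusted p = 0.000788). Its close copy, listed in the tables beside it as BC061194 under the older naming, was at most 0.0634 FPKM in a line, against 342 FPKM in round sperm, and these copies may share fragments. Spag4, a protein of the spermatid nuclear envelope, was at 0.329, 0.311 and 0.0705 FPKM in the lines, against 463 FPKM in round sperm (-8.56 ± 0.19, adjusted p = 0.000394). Spag8 was at most 0.194 FPKM in a line, against 149 FPKM in round sperm. Spag4, Spag6, Spag8 and Spag17 entered only through round sperm, where 94.0% of all genes were called lower. Spag11a and Spag11b, defensin-like genes of the epididymis, were listed at 0 in all 6 libraries.

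Spag1, Spag5, Spag7 and Spag9 had clear levels in AG-haESCs. Spag1, a factor that helps assemble dynein arms, was at 1.83, 1.79 and 3.07 FPKM in A129-2, AOS-14 and AOS-16, against 87.5 FPKM in round sperm (-4.80 ± 0.32, adjusted p = 0.00345). Spag5, which encodes the mitotic spindle protein astrin, was at 7.67, 20.1 and 13.7 FPKM in the lines, against 93.6 FPKM in round sperm (-2.77 ± 0.64, adjusted p = 0.0423). Its call was lost without AOS-14 (adjusted p = 0.0709), without AOS-16 (adjusted p = 0.133) and after rescaling (-1.73, adjusted p = 0.0596). Spag9, a scaffold protein that links cargo to microtubule motors, was at 12.9, 14.9 and 11.4 FPKM in the lines, against 42.3 FPKM in round sperm (-1.63 ± 0.19, adjusted p = 0.0106), and lost its call after rescaling (-0.59, adjusted p = 0.0802). Spag7 was at 43.3, 62.3 and 50.3 FPKM in the lines, against 91.8 FPKM in round sperm (-0.82 ± 0.27, adjusted p = 0.0822), which passed neither bound. Its direction turned to 0.25 after rescaling, and after quantile normalisation it was 0.82 (adjusted p = 0.0405), still under the limit of 1.

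Genes that work with the sperm tail were read from 7 further lists, 103 genes tested in all, of which 95 were lower in AG-haESCs, 3 were higher and 5 were not called. Over all genes 39.1% were lower. The 46 genes that entered only through round sperm were all lower, against 94.0% of all such genes, so their count says little about these lists. Of the 57 that reached 1 FPKM in an AG-haESC library, 49 were lower, against 24.8%. All 10 dynein intermediate and light chains were lower, 4 of them genes that reached 1 FPKM in an AG-haESC library. The largest differences were those of Nme8 (-8.42 ± 0.08, adjusted p = 6.09e-05) and Dnali1 (-8.15 ± 0.08, adjusted p = 7.29e-05), which entered only through round sperm, at 345 and 293 FPKM there. Of 17 genes for the assembly and docking of dynein arms 16 were lower, 6 of them among the 7 that reached 1 FPKM in a line. The largest differences were those of Dnaaf1 and Zmynd10, which entered only through round sperm. Dnaaf1, an assembly factor, was at most 0.206 FPKM in a line and 1008 FPKM in round sperm (-9.77 ± 0.13, adjusted p = 0.000120), with Zmynd10 after it (-7.76 ± 0.22, adjusted p = 0.000640). Of 15 genes of the nexin-dynein regulatory complex and the central pair 14 were lower, 3 of them among the 4 that reached 1 FPKM in a line. The largest differences were those of Ccdc65 (-9.01 ± 0.13, adjusted p = 0.000154) and Tcte1 (-8.06 ± 0.09, adjusted p = 8.05e-05), which entered only through round sperm. All 16 other genes of the fibrous sheath and sperm tail were lower, of which 11 entered only through round sperm and 5 reached 1 FPKM in a line. Meig1, needed for spermatids to build the tail, entered only through round sperm. It was at 0.704 FPKM in AOS-14 and listed at 0 in the other lines, against 6341 FPKM in round sperm (-12.37 ± 0.45, adjusted p = 0.00107). The lactate dehydrogenase of the germ line, Ldhc, stood at 0.576, 1.28 and 1.32 FPKM in the AG-haESC lines, against 8314 FPKM in round sperm (-12.00 ± 0.32, adjusted p = 0.000581).

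Intraflagellar transport builds primary cilia as well as flagella, and 20 of its 23 genes reached 1 FPKM in an AG-haESC library. All 20 were lower in AG-haESCs, against 24.8% of all genes that reached 1 FPKM in an AG-haESC library, and so were the remaining 3. Ift140 was at 2.25, 1.98 and 2.53 FPKM in the lines, against 245 FPKM in round sperm (-6.25 ± 0.15, adjusted p = 0.000452). Kif17, a kinesin at most 0.301 FPKM in a line, had the largest difference (-7.30 ± 0.13, adjusted p = 0.000249). It was among the 3 that entered only through round sperm, where 94.0% of all genes were called lower. After rescaling, 16 of the 22 genes that then reached 1 TPM in AG-haESCs were lower, against 14.1%. Of 14 genes of cytoplasmic dynein and dynactin, the cargo motor of all cells, 9 were lower and 3 higher as deposited. Over all genes tested 39.1% were lower and 22.8% higher. Of the 12 in this list that reached 1 FPKM in a line 7 were lower, against 24.8%. Dync1i1 and Dynlrb2 entered only through round sperm. After rescaling, 2 of the list were lower and 3 higher, against 27.4% lower over all genes. Of those 2, 1 reached 1 TPM in a line. The roadblock light chains Dynlrb1 and Dynlrb2 lay in opposite directions. Dynlrb1 was at 135, 188 and 154 FPKM in the lines, against 6.91 FPKM in round sperm (4.32 ± 0.25, adjusted p = 0.00263), while Dynlrb2 was listed at 0 in all AG-haESC and ESC XX libraries, against 481 FPKM in round sperm. Dync1li1, a light intermediate chain, was also higher (3.44 ± 0.29, adjusted p = 0.00538), and Dctn2, a dynactin subunit, was lower (-2.73 ± 0.24, adjusted p = 0.00604).

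Transcription factors of ciliary genes followed in part. Of 8 tested 7 were lower in AG-haESCs, against 39.1% of all genes tested. Of the 5 that reached 1 FPKM in a line 4 were lower, against 24.8% of all such genes. Rfx3, Rfx4 and Sox5 entered only through round sperm, where 94.0% of all genes were called lower. Myb was not called, at 0.841, 1.46 and 1.83 FPKM in A129-2, AOS-14 and AOS-16 and listed at 0 in round sperm (1.23 ± 0.31, limma, adjusted p = 0.0514). After rescaling, 7 of the list were lower and 1 was higher, against 27.4% lower and 4864 of 16285 higher over all genes. Of the 6 in the list that then reached 1 TPM in a line 5 were lower, against 14.1%. Foxj1, the main activator of motile cilium genes, was at 1.09, 0.616 and 1.99 FPKM in A129-2, AOS-14 and AOS-16, against 167 FPKM in round sperm (-6.28 ± 0.45, adjusted p = 0.00396). Sox5 was at most 0.00734 FPKM in a line, against 64.3 FPKM in round sperm (-6.03 ± 0.05, adjusted p = 5.52e-05). Rfx2, which activates flagellar genes in spermatids, was at 13.6, 21.8 and 24.2 FPKM in the lines, against 349 FPKM in round sperm (-4.11 ± 0.42, adjusted p = 0.00814). Rfx2 is no gene of the naming rule and was chosen with its value known. Mcidas and Gmnc, which start the multiciliated programme, stayed under 1 FPKM in all 6 libraries, and Mcidas was listed at 0 in round sperm.

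**Figure D3:**
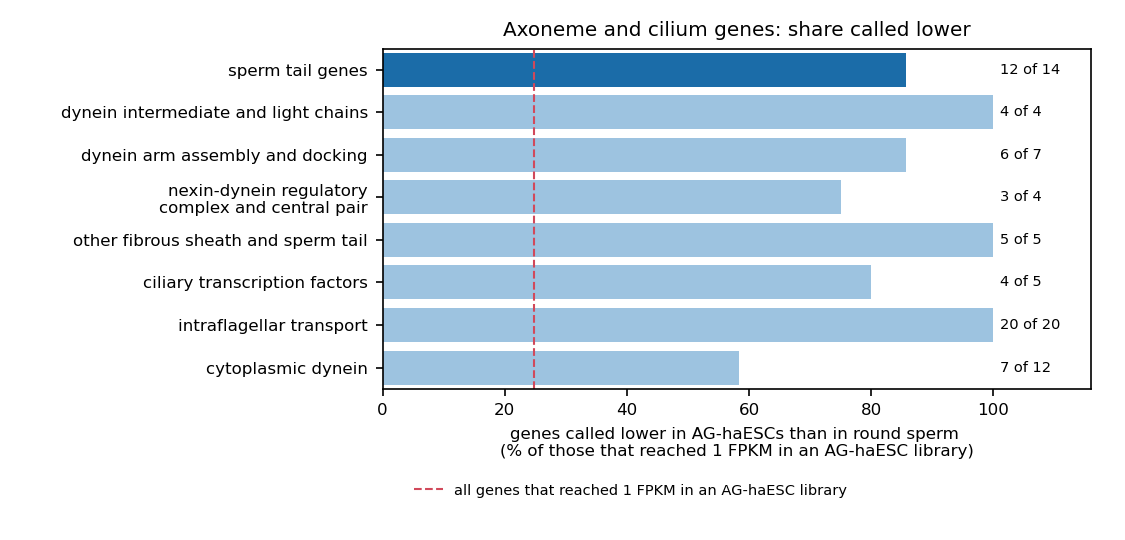
Share of genes called lower in AG-haESCs than in round sperm among those that reached 1 FPKM in an AG-haESC library, for the sperm tail genes and 7 related lists, with the counts at the right. The dashed line is the share over all such genes, 24.8%; the cytoplasmic dynein list lies nearest to it and the intraflagellar transport list is at 20 of 20.

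Differences between the 3 haploid lines were read in TPM over the 16 sperm tail genes that reached 1 TPM in a line. Dnah8, Rsph3b, Spag16 and Tekt1 reached it in A129-2 alone, and Tekt5 in AOS-14 alone. A129-2 was highest for 8 of the 16 genes and AOS-14 lowest for 10. The same counts were not made over all genes, so these say little about sperm tail genes in particular. In AOS-14 genes under 200 nt held 12.7% of all FPKM, against 0.111% and 0.00983% for A129-2 and AOS-16, which lowers every other TPM value of AOS-14, and their part in this order was not tested. Rsph3b differed most between lines, at 2.53, 0.253 and 0.951 TPM in A129-2, AOS-14 and AOS-16, and Dnah8 followed at 2.34, 0.327 and 0.714 TPM. Spag7 and Spag9 varied least, with 1.08 and 1.21 times between the highest and the lowest line. With 1 library per line these differences have no replicate check.

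AG-haESCs were compared with ESC XX to see how the haploid lines differ from stem cells labelled XX and cultured in 2i. The tables were scaled apart, so no test was run. A gene was called higher or lower where the group means of log2(TPM + 1), less the median difference of all genes, differed by at least 1 and the values of the 3 lines and of ESC XX did not overlap. Of the 45 genes 18 reached 1 TPM in a library; 2 (11.1%) were higher in AG-haESCs, 1 (5.56%) was lower and 15 met neither bound. These shares are near those of all 14251 genes kept, 6.93% higher and 7.82% lower. With a pseudocount of 0.1 the counts were 2 higher and 4 lower, against 1424 higher and 1593 lower of all 14251 genes. The median over the 18 genes was -0.06. Feeder fibroblast markers differed between these groups, with 8 of 10 lower in AG-haESCs and sums of 415 to 687 TPM in AG-haESCs against 3401 and 3409 TPM in ESC XX. The part of feeder cells in the levels below was not tested.

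Dnah8 was the gene lower in AG-haESCs. It stood at 2.34, 0.327 and 0.714 TPM in A129-2, AOS-14 and AOS-16, against 9.36 and 9.96 TPM in ESC XX, and the groups did not overlap (-2.33 ± 0.69, log2 difference ± SD of the 3 lines). ESC XX thus carried Dnah8 at a level that no other dynein heavy chain approached in those libraries, where Dnah11 was next at 0.368 and 0.336 TPM. Exons of Dnah8 overlap 1700097N02Rik on the opposite strand, an RNA that starts from a shared promoter. That RNA was at 4.38, 0.945 and 4.04 FPKM in the lines and 8.69 and 7.68 FPKM in ESC XX, and its share of the Dnah8 fragments was not tested. The difference kept its side in all 10 alternatives, from -3.24 with a pseudocount of 0.1 to -2.14 without AOS-14.

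Rsph9 was higher in AG-haESCs, at 7.52, 5.61 and 11.8 TPM in A129-2, AOS-14 and AOS-16, against 2.67 and 1.37 TPM in ESC XX (1.71 ± 0.48). All 3 lines lay above both ESC XX libraries, and the rule was met in all 10 alternatives. Odf2l was also higher, at 17.7, 6.06 and 7.28 TPM in the lines, against 4.41 and 4.58 TPM in ESC XX (1.01 ± 0.75). It stood at the limit of 1 and, with no filter or the median difference kept (0.91), without A129-2 and without the first ESC XX library, it no longer met the rule. Without A129-2 Rsph1 met it (1.05), at 3.25, 5.58 and 11.6 TPM in the lines, against 4.50 and 3.61 TPM in ESC XX.

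The widely expressed genes overlapped or differed by less than the rule asks. Odf2 was at 113, 97.2 and 160 TPM in the lines, against 140 and 141 TPM in ESC XX (-0.11 ± 0.37). Spag9 was at 25.3, 21.0 and 20.9 TPM in the lines, against 24.5 and 24.9 TPM in ESC XX (-0.03 ± 0.15). Spag7 and Spag5 were lower in all 3 lines than in both ESC XX libraries. Spag7 was at 85.0, 88.0 and 92.1 TPM in the lines, against 137 and 139 TPM in ESC XX (-0.53 ± 0.06), and Spag5 was at 15.1, 28.4 and 25.0 TPM in the lines, against 39.6 and 38.8 TPM in ESC XX (-0.70 ± 0.46). The sperm genes Smcp, Odf1, Odf3, Odf3l1, Akap4, Tekt4 and Rsph6a were listed at 0 in both ESC XX libraries. Of these, Smcp alone was listed at 0 in all 3 AG-haESC lines, and the highest value of the others in a line was 0.308 FPKM, of Rsph6a in A129-2.

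The remaining genes described by library against round sperm had low levels in both kinds of stem cell. Tekt2 was at 2.11, 1.11 and 0.908 TPM in A129-2, AOS-14 and AOS-16, against 3.45 and 3.09 TPM in ESC XX, below both ESC XX libraries in every line (-0.78 ± 0.37). Tekt1 was at 1.90, 0.652 and 0.971 TPM in the lines, against 1.46 and 1.70 TPM in ESC XX, and the groups overlapped. Spag4 was at 0.645, 0.440 and 0.129 TPM in the lines, against 0.994 and 1.58 TPM in ESC XX (-0.60 ± 0.28). Tekt2 and Spag4 thus lay on the side of Dnah8 without meeting the rule, which they met with a pseudocount of 0.1. Spag16 was at 2.26, 0.358 and 0.652 TPM in the lines, against 0.280 and 0.427 TPM in ESC XX, and AOS-14 lay within the ESC XX values. Spag6 was at 0.187, 0.252 and 0.972 TPM in the lines, against 0.522 and 0.182 TPM in ESC XX. Neither of these Spag genes separated the groups. Dnah17 was at 0.248, 0.277 and 0.314 TPM in the lines, against 0.210 and 0.169 TPM in ESC XX. Dnah10 was at 0.124, 0.227 and 0.383 TPM in the lines, against 0.258 and 0.120 TPM in ESC XX. Akap3 was at 0.0720, 0.0242 and 0.115 TPM in the lines, against a listed 0 and 0.0350 TPM in ESC XX. The Akap3 values are at the level of very few fragments.

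**Figure D4:**
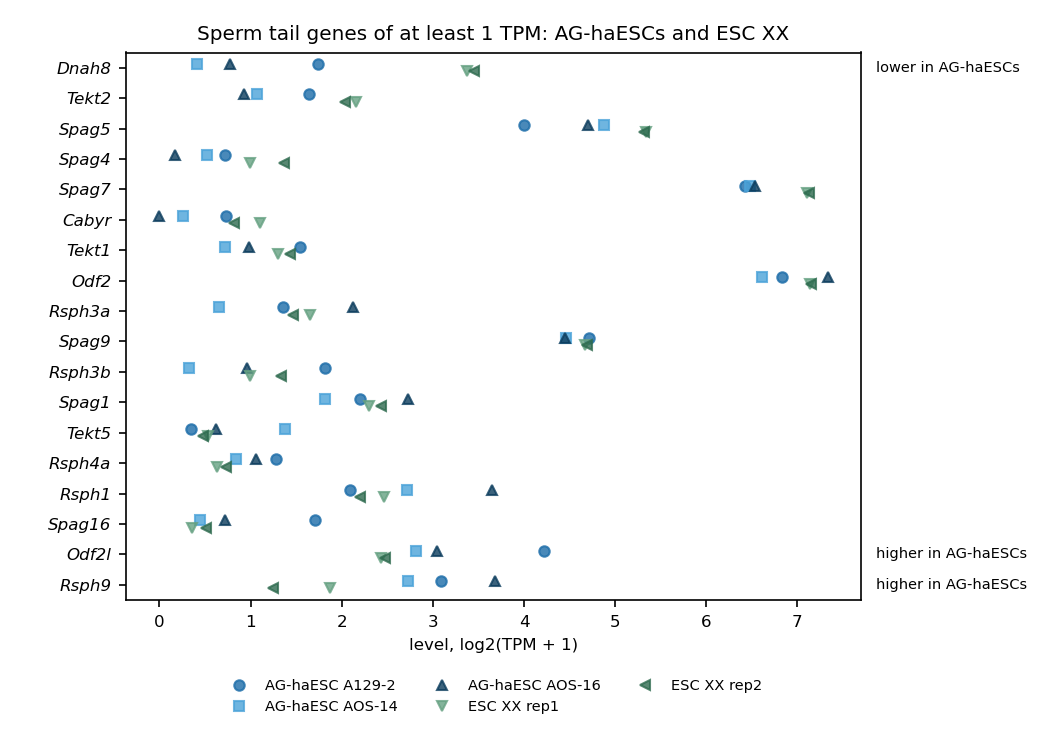
Level of the 18 sperm tail genes that reached 1 TPM in an AG-haESC or ESC XX library, as log2(TPM + 1), ordered by the difference between the groups with the lowest at the top; each symbol is 1 library. Dnah8 is lower in all AG-haESC lines than in ESC XX, Odf2l and Rsph9 are higher, and most other genes overlap or lie close.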

How the data were processed

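Libraries were prepared from polyA RNA by a strand-preserving protocol, per the labels' protocols. The submitters' processing notes name TopHat2 2.0.13, Cuffdiff 2.2.1 and the mm9 build. Settings, any strand option and the scaling between libraries are not given in these sources. The authors deposited FPKM values in 3 tables of the same 23889 symbols, with the ESC XX libraries in tables of their own. The shared table's header names no unit, and FPKM was read from the tool and the values.

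AG-haESCs (3 libraries) and round sperm (1) were compared within their table on log2(FPKM + 1), using limma 3.58.1 (R 4.3.3) and its trend of variance with mean, for genes of at least 1 FPKM in at least 1 library, with p adjusted over all genes. The 3 lines give the spread (2 residual degrees of freedom), and round sperm is assumed to vary like them. A log2(value + 1) difference understates the change of low genes. ESC XX was compared in TPM by size and overlap, without a test. Its 2 libraries differed by 1.13 to 1.32 times counting noise, and the AG-haESC lines by 6.40 to 48.5 times. Values in each library (FPKM against round sperm, TPM against ESC XX) were given for genes called higher than in round sperm (there were none), the 3 highest in round sperm called lower in each family, those averaging at least 5 TPM in AG-haESCs or ESC XX, those meeting the rule against ESC XX, and those of at least 5 FPKM in round sperm not called. Each related list is named by its 2 largest calls in each direction. The members and lists were chosen with earlier results of these data known. Chromosomes and lengths came from GENCODE M21 (GRCm38) by symbol, which matched 98.5% for length. A listed 0 can be a failed estimate. Methods were tested on simulated data.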

Additional observations from a re-analysis of the deposited data

How the results depend on the processing

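Against round sperm, 34 of the 38 genes called lower were called lower in every alternative that tested them. Dnah11, Rsph3b, Spag5 and Spag9 were not. Over all genes 39.1% were called lower as deposited and 27.4% after rescaling. Of the 38 sperm tail genes, 26 entered only through round sperm, where 94.0% of all genes were called lower, so their stability says little. The other 12 included Rsph3b, Spag5 and Spag9. The count of lower genes was 34 after rescaling to the same total, also with short genes left out, 35 after quantile normalisation, and 35 to 39 when a line was left out; no gene was called higher in any of the 10 alternatives, in which the 7 related lists gave 80 to 95 lower and 3 to 5 higher genes (5 after quantile normalisation). Without AG-haESC line A129-2, AOS-14 or AOS-16 the lists gave 83 to 93 lower genes. Spag7, at -0.82 as deposited, was at 0.25 after rescaling, 0.22 with short genes also left out and 0.82 after quantile normalisation; the median of all genes, -0.49 as deposited, was then 0.49, 0.46 and 0.42. Against ESC XX, 4 genes were lower with a pseudocount of 0.1 (Dnah8, Cabyr, Spag4 and Tekt2), and 1 gene, Rsph9, was higher with no filter, with the median difference kept and without the first ESC XX library; over all genes the higher count, 987, was 644 with no filter or the median kept; leaving out a library gave 1 to 2 higher members and 1 lower. With a pseudocount of 0.1 the lower count over all 14251 genes kept was 1593, against 1114 with a pseudocount of 1. The cause of these changes was not tested. No paired analysis was possible because the groups share no replicate numbers in the labels. Depth limits values under about 0.1 FPKM, which are worth about 1 fragment per kb.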

Other observations

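Over the 7 related lists 69 genes were kept against ESC XX. The rule called 5 (7.25%) higher in AG-haESCs and 4 (5.80%) lower, near the shares of all genes (6.93% and 7.82%). Those higher were Ttc25, Ift122, Foxj1, Sept4 and Dctn3. Ttc25, which docks outer dynein arms, was at 6.08, 6.33 and 10.8 TPM in A129-2, AOS-14 and AOS-16, against 2.62 and 1.58 TPM in ESC XX. Ift122, of intraflagellar transport, was at 5.96, 6.65 and 9.91 TPM in the lines, against 2.61 and 2.30 TPM in ESC XX. Foxj1 was at 2.14, 0.872 and 3.63 TPM in the lines, against 0.547 and 0.651 TPM in ESC XX. Sept4 was at 1.97, 8.95 and 1.80 TPM in the lines, against 1.07 and 1.33 TPM in ESC XX, and Dctn3 at 135, 112 and 113 TPM, against 62.6 and 60.4 TPM in ESC XX. Those lower were Dnaaf3, Wdr16, Ttc30b and Dync1h1. Dnaaf3, an assembly factor of dynein arms, was at 5.74, 5.61 and 4.93 TPM in the lines, against 14.0 and 13.6 TPM in ESC XX. Wdr16 was at 0.317, 0.322 and 0.169 TPM in the lines, against 2.18 and 2.32 TPM in ESC XX. Ttc30b was at 1.93, 0.415 and 1.05 TPM in the lines, against 3.53 and 3.93 TPM in ESC XX, and Dync1h1 at 22.5, 35.8 and 31.4 TPM, against 66.4 and 66.9 TPM in ESC XX.

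Of the sperm tail genes, 8 were listed above 0 in a single AG-haESC line. They were Akap4, Dnah9, Odf3l1, Odf4 and Tekt4 in AOS-14, at 0.00372 to 0.115 FPKM, Odf3 and Tekt3 in A129-2, at 0.145 and 0.0697 FPKM, and Odf3l2 in AOS-16, at 0.174 FPKM. Over all genes with at least 300 FPKM in round sperm, 207 had no value above 0 in either A129-2 or AOS-16. AOS-14 gave a value above 0 for 117 of those 207, so its 5 genes say little about sperm tail genes in particular. Dnah9, at 2.55 FPKM in round sperm, lies outside that set. No such share was counted for A129-2 or AOS-16. AOS-14 is the deepest of the 3 lines, with more than 1.5 times the estimated fragments of either other line. The part of depth in these counts was not tested.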
